A study of Mus musculus with 2 samples.

Results

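Lymphatic endothelial cells of the mouse heart were described from 53 cell barcodes among 9092 that passed the filters on genes and mitochondrial reads. A barcode stands for 1 droplet, usually 1 cell. It was counted as lymphatic when it had at least 500 genes, at most 10% of its unique molecular identifiers (UMIs, counted mRNA molecules) from mitochondrial genes, and UMIs of at least 3 of the genes Prox1, Lyve1, Mmrn1, Ccl21a and Reln. The rule took 24 of 4144 barcodes in the db/db and salt library and 29 of 4948 in the db/+ library. Because the same counts chose the barcodes, levels of those 5 genes are description only.

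The study sequenced heart cells by droplet RNA-seq of transcript 3' ends, with 1 library per group. The db/db and salt group was labelled as db/db with 1% salt, the db/db genotype being homozygous for a loss-of-function allele of the leptin receptor, a model of obesity and type 2 diabetes. The db/+ group was heterozygous for that allele and carried no label of salt. Both groups were male, with 4 hearts per genotype stated in the design, and the labels do not say whether the hearts were pooled. Hearts were digested with collagenase, filtered to take out cardiomyocytes and depleted of CD45+ leukocytes on magnetic beads, so the suspension holds only what survived those steps. Genotype and salt change together between the groups and cannot be told apart. A difference between the libraries has no replicate check, and all intervals below are 95% intervals of counting error only.

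Lymphatic vessels drain fluid, lipids and leukocytes from the tissue back to the veins. Their endothelium is set apart from blood endothelium by the transcription factor Prox1 and by the receptor Flt4, through which the growth factor Vegfc drives lymphatic growth. Blind-ended capillaries carry Lyve1 and secrete Ccl21a, the chemokine that draws in dendritic cells and T cells, while the collecting vessels downstream carry valves and have little Lyve1.

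Ccl21a lies in a multicopy region of chromosome 4, which bears on how its counts can be read. The annotated gene is at chr4:42772860-42773993 on the minus strand (GRCm38). Coding bases 54 to 224 of Ccl21a and of its near-identical copy Ccl21b are shown from the reference transcripts 5′ to 3′, with capitals at the 2 bases that differ.
Ccl21a: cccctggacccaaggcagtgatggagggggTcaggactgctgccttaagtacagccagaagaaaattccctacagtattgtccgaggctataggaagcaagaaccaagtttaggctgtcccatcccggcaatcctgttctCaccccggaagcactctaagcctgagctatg
Ccl21b: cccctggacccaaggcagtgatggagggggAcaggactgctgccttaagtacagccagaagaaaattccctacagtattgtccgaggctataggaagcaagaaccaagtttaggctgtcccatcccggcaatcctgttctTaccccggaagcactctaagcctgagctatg
The substitutions are T84A and C194T, counted from 1 at the first coding base with the Ccl21a base first, and the copies share 99.5% of 402 coding bases. The copy Gm21541 has the same 2 substitutions in its coding sequence and differs from Ccl21a at 3 of the last 300 transcript bases, the end this assay reads. Gm21541 had 36 UMIs in db/db and salt and 52 UMIs in db/+ lymphatic barcodes, and 0 UMIs in the blood endothelial barcodes of both libraries. Reads of these copies can be split or lost between them, so the Ccl21a level is uncertain in size.

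The 2 libraries were close in depth. In total, 40974634 UMIs came from 4751 barcodes of db/db and salt hearts and 44935235 UMIs from 5676 barcodes of db/+ hearts. Lymphatic barcodes held 2672 to 36107 UMIs in db/db and salt (median 10876.5) and 1885 to 63521 UMIs in db/+ (median 13248). All levels below are UMI sums over the barcodes of a class as CPM, the usual scaling of each class to an equal UMI total, where 3 UMIs stand for 8.79 CPM in db/db and salt and 5.76 CPM in db/+. Blood endothelial barcodes, the comparison class, had at least 4 UMIs of Pecam1, Cdh5, Egfl7 and Cldn5 together and none of Prox1 and Mmrn1. They numbered 2873 in db/db and salt and 3498 in db/+, with medians of 5931 and 6020 UMIs. The libraries shared 7 cell barcode sequences, 1 of them lymphatic.

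Lymphatic barcodes were similarly rare in both libraries. They made up 0.579% (0.371 to 0.861) of kept barcodes in db/db and salt and 0.586% (0.393 to 0.841) in db/+ (exact binomial). As a share of lymphatic and blood endothelial barcodes together they were 0.828% in db/db and salt and 0.822% in db/+. These are shares of a digested and depleted suspension and not of the heart.

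The number of rule genes per barcode was graded around the threshold. In db/db and salt, 114, 16, 9, 1 and 14 barcodes had UMIs of 1, 2, 3, 4 and 5 rule genes. In db/+ the numbers were 110, 7, 6, 6 and 17. All 5 rule genes had UMIs in 14 of the 24 db/db and salt barcodes and in 17 of the 29 db/+ barcodes. The next combination was Prox1, Mmrn1 and Reln without Lyve1 or Ccl21a, in 8 db/db and salt and 5 db/+ barcodes. Just inside the threshold, 9 db/db and salt and 6 db/+ barcodes had exactly 3 rule genes, with medians of 29 and 37 rule-gene UMIs. Just outside it, 16 db/db and salt and 7 db/+ barcodes had 2, with medians of 4 and 10 UMIs. Fgl2, a fibrinogen-like protein that the rule did not use, had UMIs in every barcode with 3 rule genes (9 of 9 and 6 of 6) and in 6 of 16 and 1 of 7 barcodes with 2. Flt4 divided them less, with UMIs in 7 of 9 and 5 of 6 barcodes with 3 and in 9 of 16 and 3 of 7 with 2. The transcription factor Maf had UMIs in 7 of 9 and 5 of 6 barcodes with 3 and in 6 of 16 and 1 of 7 with 2.

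Prox1, the switch of lymphatic fate, stood at 536 CPM (461 to 620) in db/db and salt and 580 CPM (516 to 649) in db/+ lymphatic barcodes. Per barcode it had 1 to 27 UMIs in db/db and salt (median 7) and 0 to 52 UMIs in db/+ (median 4), so most barcodes of the libraries overlapped, and 3 db/+ barcodes lay above the db/db and salt range and 1 below it. Mmrn1, a secreted multimerin, had 3050 CPM (2868 to 3241) in db/db and salt and 2206 CPM (2080 to 2337) in db/+. Lyve1, a hyaluronan receptor, was uneven: it had 0 to 106 UMIs per db/db and salt barcode (median 12) and 0 to 92 per db/+ barcode (median 8), with UMIs in 14 of 24 and 20 of 29. Ccl21a ranged from 0 to 523 UMIs in db/db and salt (median 18.5) and from 0 to 566 in db/+ (median 39). Among blood endothelial barcodes, Lyve1 UMIs were seen in 1.04% in db/db and salt and 0.8% in db/+, and Ccl21a UMIs in 0.174% and 0.2%.

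**Figure D1:**
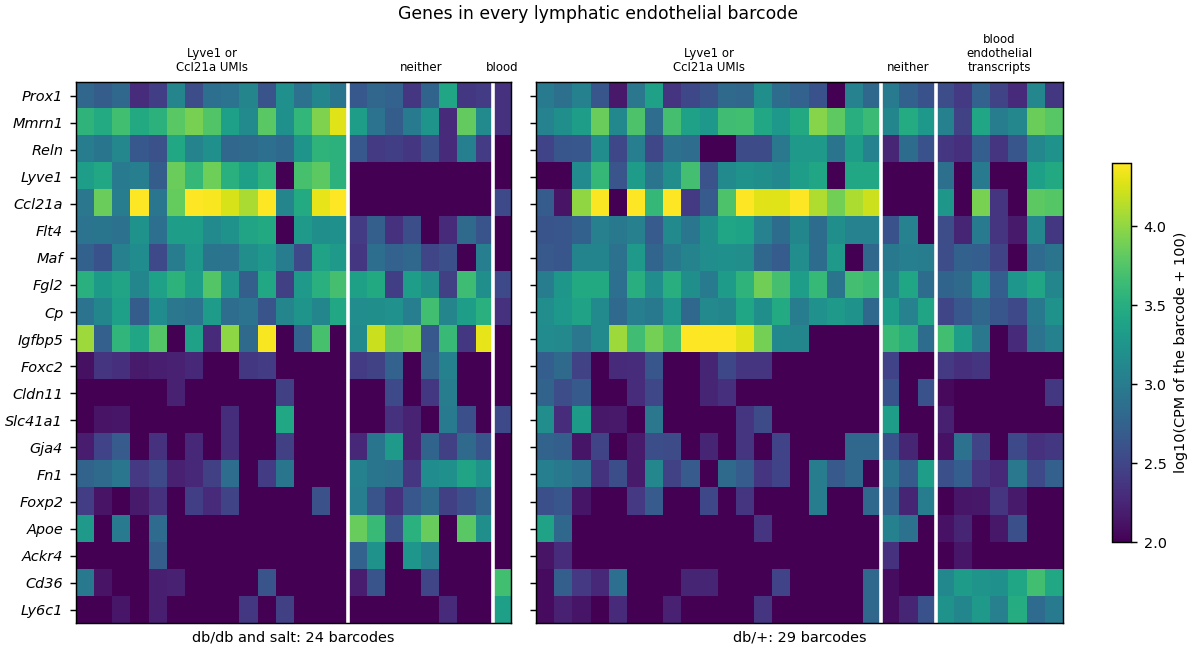
Heat map of log10(CPM + 100) of 20 genes (rows) in every lymphatic barcode (columns), the 24 of the db/db and salt library to the left of the 29 of the db/+ library. Within each library columns are grouped by barcodes with Lyve1 or Ccl21a UMIs, barcodes with neither, and barcodes with blood endothelial transcripts. Prox1 and Fgl2 run across the columns, while Lyve1 and Ccl21a are blank in the second block.

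Some members also carried the transcripts of blood endothelium. The summed level of 22 blood endothelial genes was 1181 to 9402 CPM in 23 of the db/db and salt barcodes and 45937 CPM in the remaining 1. In db/+ it was 843 to 5435 CPM in 22 barcodes and 16751 to 26786 CPM in 7. The median blood endothelial barcode had 46378 CPM in db/db and salt and 43524 CPM in db/+. These 8 barcodes, set apart at 10000 CPM after the values were seen, held 2.43% of the lymphatic UMIs in db/db and salt and 33.1% in db/+. In db/+ they also held 549 of 558 UMIs of the mural list and 111 of 115 UMIs of the proliferation list. These lay unevenly among the 7: 4 of them had 4 or more mural UMIs, up to 263, and 1 held 91 of the 111 proliferation UMIs. Scrublet, a doublet caller, marked 50 of 4144 barcodes in db/db and salt and 64 of 4948 in db/+, and none of the lymphatic ones. Values between libraries are therefore given without the 8 as well as with all 53 barcodes, or in the way stated beside them. Without them the share was 0.555% (0.352 to 0.832) in db/db and salt and 0.445% (0.279 to 0.672) in db/+.

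**Figure D2:**
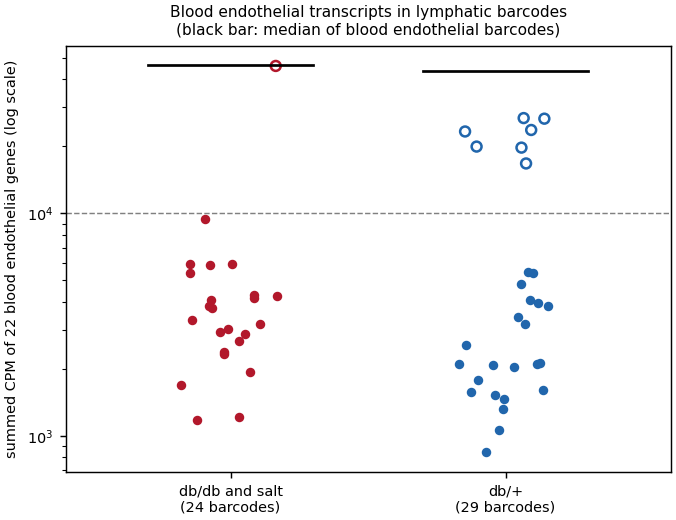
Summed CPM of 22 blood endothelial genes in each lymphatic barcode (points, log axis) of the db/db and salt library (left) and the db/+ library (right), with the 10000 CPM limit as a dashed line and the median of blood endothelial barcodes as a black bar. 1 of 24 db/db and salt barcodes and 7 of 29 db/+ barcodes lie above the line.

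Markers of other cells were low in the lymphatic barcodes. Of 12 macrophage and leukocyte markers 10 had 0 UMIs, Ptprc and Cd68 among them, and the summed level was 103 CPM in db/db and salt and 51.8 CPM in db/+. Most of that was Mrc1, a mannose receptor that lymphatic endothelium is known to carry, with 34 UMIs in db/db and salt and 23 in db/+. The 8 fibroblast markers summed to 76.2 CPM in db/db and salt and 28.8 CPM in db/+, against 1375 and 1314 CPM in blood endothelial barcodes of the same libraries. The 8 mural markers summed to 38.1 CPM in db/db and salt and 1071 CPM in db/+, and to 39.0 and 25.8 CPM without the 8 barcodes. The 6 endocardial markers summed to 911 CPM in db/db and salt and 499 CPM in db/+, against 282 and 263 CPM in blood endothelium. The higher sum came from Plvap, at 648 CPM in db/db and salt and 276 CPM in db/+, and not from the list as a whole. Of 5 markers tested against blood endothelium, Plvap alone was at least 2-fold higher and Npr3 alone at least 2-fold lower. Their median log2 ratio was -1.10. Most of each lymphatic sum was Plvap and Cgnl1, while Npr3, an endocardial receptor, had 3 and 2 UMIs.

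Set against blood endothelium, the lymphatic barcodes differed in both directions by similar numbers of genes. With both libraries pooled, 425 of 8732 genes, or 4.87%, were at least 2-fold higher in lymphatic barcodes, pooled and in each library. A further 432, or 4.95%, were at least 2-fold lower. Without the 8 barcodes, 492 of 8742 genes (5.63%) were higher and 597 (6.83%) lower. Ratios are log2 of CPM + 10 over CPM + 10, which shrinks those of low genes, and genes had at least 10 CPM as the mean of both classes. With 6371 barcodes in the blood endothelial class, counting error sits almost wholly on the lymphatic side.

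The known lymphatic identity genes stood on the lymphatic side almost without exception. Of 27 tested outside the rule, 25 were at least 2-fold higher and 0 lower, beside 4.87% and 4.95% of all genes. Their median log2 ratio was 3.39 against 0.01 for all tested genes. The 2 others were Gata2 and Nrp2, a co-receptor of Flt4. Flt4 itself had 672 CPM in lymphatic and 55.7 CPM in blood endothelial barcodes. Pdpn, the podoplanin that binds Clec2 on platelets, had 222 CPM in lymphatic and 3.57 CPM in blood endothelial barcodes. On these genes the label of the cells holds in both libraries.

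The 15 genes named for the highest ratios included secreted proteins of iron, copper and innate defence. Fgl2 led them, with 2180 CPM (2026 to 2342) in db/db and salt and 1609 CPM (1502 to 1721) in db/+, against 8.98 and 8.21 CPM in blood endothelial barcodes. Lcn2, the siderophore-binding lipocalin, had 768 CPM in lymphatic and 1.70 CPM in blood endothelial barcodes. Cp, ceruloplasmin, the copper-carrying ferroxidase, had 1221 CPM in lymphatic and 41.5 CPM in blood endothelial barcodes. Lbp, the binding protein of bacterial lipopolysaccharide, had 614 CPM in lymphatic and 14.2 CPM in blood endothelial barcodes. Igfbp5, a binding protein of insulin-like growth factors, was the most abundant of them, at 4959 CPM in lymphatic and 136 CPM in blood endothelial barcodes. The others were Maf, Lrg1, Clca3a1, Gpm6a, Dtx1, Pard6g, Pkhd1l1, Sema3d, Plvap and Prss23, at log2 ratios of 4.19 to 5.82. Maf is a leucine-zipper transcription factor, Sema3d a guidance protein and Dtx1 a regulator of Notch signalling. Plvap, the protein of endothelial diaphragms, stands on the blood endothelial list and went against it, with 423 CPM in lymphatic and 13.0 CPM in blood endothelial barcodes.

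The transcription factor list had 8 of 19 genes at least 2-fold higher and 0 lower, against 4.87% and 4.95% of all genes, with a median of 0.76. Tbx1, known from lymphatic and pharyngeal development, had 59 UMIs in db/db and salt and 81 UMIs in db/+ lymphatic barcodes and 0 UMIs among all blood endothelial barcodes. Nr2f2, the nuclear receptor that acts with Prox1, had 501 CPM in lymphatic and 88.8 CPM in blood endothelial barcodes. Foxc2, needed for lymphatic valves, had 160 CPM in lymphatic and 3.47 CPM in blood endothelial barcodes, and Hoxd8 had 146 and 4.68 CPM. The other genes called higher were Foxc1, Hoxd10, Maf and Nfatc1.

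Of 17 genes of the Vegfc and growth factor list, 4 were higher (Adm, Angpt2, Flt4, Itga9) and 3 lower (Nrp1, Ptprb, Vegfc), beside 4.87% and 4.95% of all genes. Receptor and ligand lay apart. Vegfc had 0 UMIs in db/db and salt lymphatic barcodes (up to 10.8 CPM) and 11 UMIs in db/+, all in 2 of the 8 barcodes with blood endothelial transcripts. In blood endothelial barcodes it had 118 CPM (114 to 122) in db/db and salt and 93.4 CPM (90.0 to 97.0) in db/+. Nrp1, the co-receptor of blood vessels, had 113 CPM in lymphatic barcodes, 10.3 CPM without the 8, and 960 CPM in blood endothelial barcodes.

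Among 20 genes of chemokines, scavengers and leukocyte traffic, 8 were higher and 4 lower, beside 4.87% and 4.95% of all genes. Those higher were Ackr2 and Ackr4, receptors that clear chemokines, the alarmin Il33, the lymphocyte survival factor Il7, Mrc1, Sphk1, the sphingosine-1-phosphate exporter Spns2 and the scavenger receptor Stab1. Il7 had 154 CPM in lymphatic and 1.77 CPM in blood endothelial barcodes. Stab1 had 488 CPM in lymphatic and 66.9 CPM in blood endothelial barcodes. Those lower were Cd200, the chemokines Cxcl12 and Cxcl9 and the adhesion molecule Vcam1. The list thus divided, and its median was -0.19.

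Of 18 genes of the collecting vessel and valve list, 8 were higher and 0 lower, beside 4.87% and 4.95% of all genes. The median was 0.77, and those higher included Bmp4, Cldn11, Fn1, Foxc2, Itga9 and Nfatc1. The junction list divided, with 3 of 18 genes higher and 3 lower, beside the same shares of all genes. Those higher included the claudin Cldn11 and the gap junction gene Gja4, and Esam, Jam2 and Jam3 were lower. Cldn11 had 106 CPM in lymphatic and 0.0755 CPM in blood endothelial barcodes.

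The genes of fatty acid uptake lay on the blood side. Of 17 lipid genes, 6 were lower (Cd36, Fabp4, Fabp5, Lpl, Lrp1, Scarb1) and 2 higher (Abca1 and Vldlr), with a median of -0.86. Of all genes 4.95% were lower and 4.87% higher. Fabp4, the fatty acid binding protein of capillaries, had 3353 CPM in lymphatic barcodes, 944 CPM without the 8, and 20557 CPM in blood endothelial barcodes. Fibroblast barcodes, which should lack it, had 99.5 CPM. Cd36, the fatty acid translocase, had 506 CPM in lymphatic barcodes, 126 CPM without the 8, and 3777 CPM in blood endothelial barcodes. Without the 8, 8 of the 17 lipid genes were lower and 3 higher, beside 6.83% and 5.63% of all genes, with a median of -1.31.

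Of 25 blood endothelial identity genes, 15 were lower and 1, Plvap, higher, beside 4.95% and 4.87% of all genes. Their median was -2.25 with all 53 barcodes and -3.20 without the 8, which were set apart by genes of this list. The genes named for the lowest ratios were Rgcc, Flt1, Sparcl1, Timp4, Srgn, Nrp1, Jam2, Lims2, Thrsp and C1qtnf9, at -3.19 to -2.93 with all 53 barcodes and -5.78 to -3.62 without the 8. Flt1, the decoy receptor of Vegfa, had 144 CPM in lymphatic and 1366 CPM in blood endothelial barcodes, a log2 ratio of -3.16, or -4.79 without the 8. Sparcl1, a matricellular protein, had 218 CPM in lymphatic and 1988 CPM in blood endothelial barcodes, a log2 ratio of -3.13, or -5.78 without the 8.

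The extracellular matrix list leaned the same way, with 7 of 23 lower (Col15a1, Col4a1, Col4a2, Ecm1, Hspg2, Sparc, Sparcl1) and 3 higher (Fn1, Timp2, Timp3). Its median was -0.64, or -0.66 without the 8 with the same counts. Beside this list and those below, 4.95% of all genes were lower and 4.87% higher. Without the 8 these shares were 6.83% and 5.63%. Col4a1, Col4a2 and Hspg2 encode the network of the basement membrane, which lymphatic capillaries are known to have in scant or broken form. Timp3, a metalloproteinase inhibitor, had 2751 CPM in lymphatic and 1050 CPM in blood endothelial barcodes. Of 19 genes common to all endothelium, 6 were lower (Adgrl4, Cd34, Clec14a, Esam, Ptprb, Sox7) and 0 higher. Antigen presentation genes had 2 of 21 lower and 0 higher, with a median of -0.76, and 8 of 20 lower without the 8 barcodes, with a median of -1.38. The interferon list had 6 of 26 lower and 1 higher, with a median of -0.67, and 11 of 26 lower without the 8, with a median of -1.64. The one higher was Ifi27l2a, at 568 CPM in lymphatic and 137 CPM in blood endothelial barcodes.

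**Figure D3:**
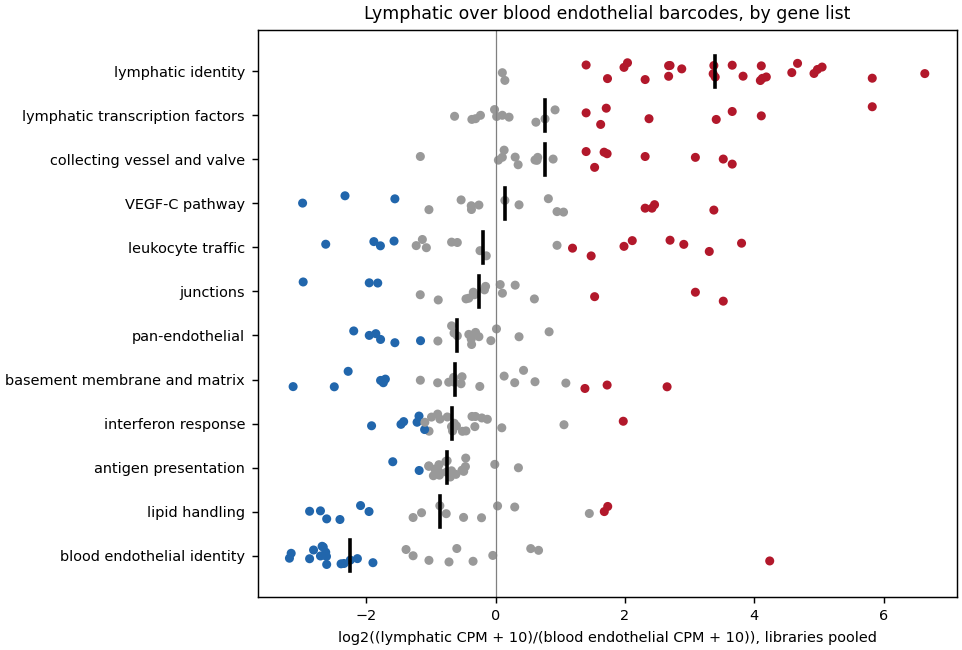
Log2 ratio of lymphatic over blood endothelial CPM (each + 10; horizontal axis) for every tested gene of 12 lists (rows), both libraries pooled. Points are genes, red if called higher, blue if called lower and grey if neither, and black bars are medians. The lymphatic identity list lies to the right with a median of 3.39 and the blood endothelial identity list to the left with a median of -2.25.

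Within the 45 barcodes without blood endothelial transcripts, those with neither Lyve1 nor Ccl21a UMIs were looked at apart. They numbered 8 of 23 in db/db and salt (34.8%, 16.4 to 57.3) and 3 of 22 in db/+ (13.6%, 2.91 to 34.9), and these intervals overlap. They were not the shallow barcodes, with a median of 14007 UMIs against 10876.5 UMIs in the 34 others. As the split was made on measured levels, what follows is a description of 11 and 34 barcodes with libraries pooled.

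Barcodes with neither gene could enter only with UMIs of Prox1, Mmrn1 and Reln, so the presence of these genes in them is set by the rule. Cd9, a tetraspanin, had 2151 CPM in those with neither and 2152 CPM in the others. Of 25 lymphatic identity genes with at least 50 CPM as the mean of both kinds of barcode, 5 were at least 2-fold lower in those with neither (Flt4, Nrp2, Pdpn, Prss23, Thy1) and 2 higher (Clca3a1, Foxp2). Over all 3573 such genes 4.11% were lower and 2.77% higher. Of the 5, Prss23 alone was 2-fold lower within each library, and the others were under 2-fold within db/+. Clca3a1 and Foxp2 were 2-fold higher within each library. Flt4 had 300 CPM in barcodes with neither and 961 CPM in the others, and thinned to 1500 UMIs it was seen in 1 of 11 and 29 of 34. Within db/db and salt Flt4 had 229 CPM in barcodes with neither and 1192 CPM in the others, and within db/+ 440 and 797 CPM, a difference under 2-fold. Pdpn had 86.4 CPM in barcodes with neither and 309 CPM in the others, and within db/+ 152 and 262 CPM. The chemokine scavenger Ackr2 had 0 UMIs in the 11, against 68.1 CPM in the others. Ccnd2, a D-type cyclin, had 10.2 CPM in barcodes with neither and 256 CPM in the others.

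Other genes were higher in the same 11 barcodes. Apoe, the lipid carrier apolipoprotein E, had 3101 CPM in barcodes with neither and 520 CPM in the others, and after thinning UMIs in 7 of 11 and 4 of 34. Most of this came from 1 library: within db/db and salt Apoe had 4206 CPM in barcodes with neither and 480 CPM in the others, and within db/+ 910 and 549 CPM, under 2-fold. The transcription factor Foxp2 had 468 CPM in barcodes with neither and 128 CPM in the others, with UMIs in 11 of 11 and 17 of 34, and after thinning in 5 of 11 and 5 of 34. Foxc1 had 295 CPM in barcodes with neither and 94.9 CPM in the others. Ackr4, which clears Ccl21 and Ccl19, had 524 CPM in barcodes with neither and 24.8 CPM in the others. It had UMIs in 5 of 11 and 3 of 34, and after thinning in 2 of 11 and 0 of 34. Within db/db and salt Ackr4 had 742 CPM (97 UMIs) in barcodes with neither and 34.6 CPM in the others. Within db/+ it had 91.0 CPM (6 UMIs) and 17.7 CPM. Most Ackr4 UMIs thus lay in a few db/db and salt barcodes without UMIs of the chemokine Ccl21a.

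**Figure D4:**
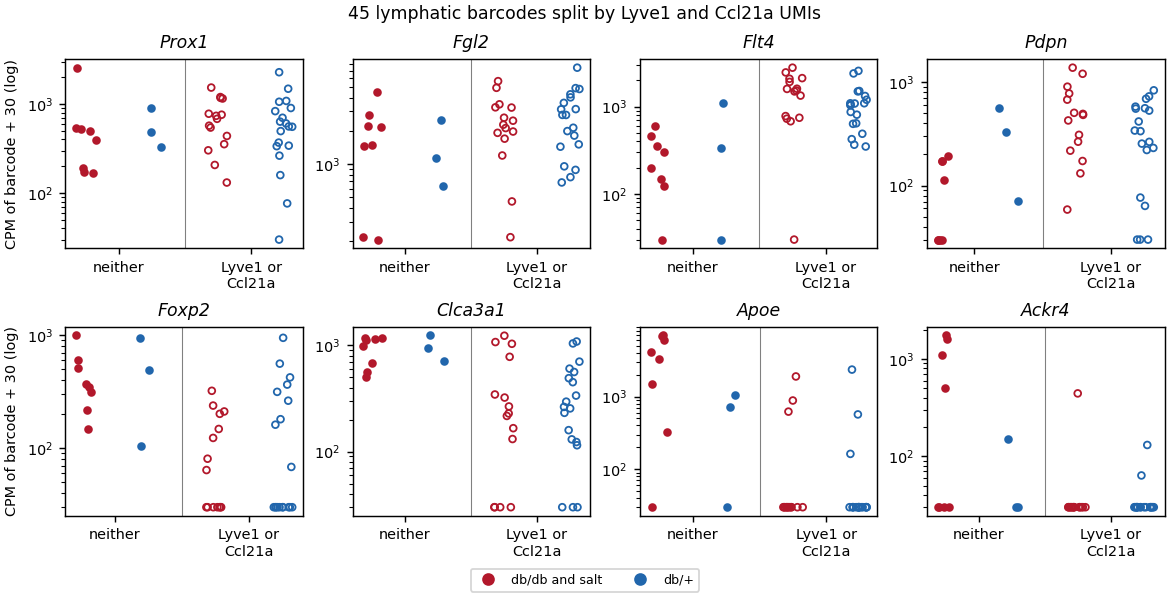
CPM + 30 (log axis) of 8 genes in each of the 45 lymphatic barcodes without blood endothelial transcripts, with filled points on the left for the 11 that have neither Lyve1 nor Ccl21a UMIs and open points on the right for the 34 that have either. Fgl2 lies at like levels on both sides, and Flt4 and Pdpn are lower on the left. Foxp2, Apoe and Ackr4 are higher there, Apoe and Ackr4 mostly in db/db and salt.

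Cldn11 lay in few barcodes. It reached 4 or more UMIs in 2 of 23 db/db and salt barcodes and 5 of 22 db/+ barcodes, which held 14 of 18 and 66 of 71 Cldn11 UMIs. These barcodes were deep in db/+, with 17789 to 59580 UMIs each and 52.4% of the UMIs of the 22, and held 8.29% of the UMIs of the 23 in db/db and salt. Against those shares, they held 19 of 50 Foxc2 UMIs in db/db and salt and 63 of 72 in db/+. Of the matrix protein Fn1 they held 28 of 208 UMIs in db/db and salt and 160 of 205 in db/+. The magnesium transporter Slc41a1 had 11 of 31 UMIs in those of db/db and salt and 254 of 259 in those of db/+.

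Between the libraries, lymphatic barcodes had 46 of 3586 genes, or 1.28%, at least 2-fold higher in db/db and salt and 98, or 2.73%, at least 2-fold lower. Genes had at least 50 CPM as the mean of the libraries. Without the 8 barcodes with blood endothelial transcripts the numbers were 54 of 3560 (1.52%) higher and 55 (1.54%) lower. In the much deeper blood endothelial class they were 5 of 3580 (0.14%) higher and 35 (0.978%) lower. A fold of shallow sums passes the limit more readily by counting error, so these shares are not set against each other.

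Lymphatic identity genes passed the limit between the groups at a share near that of all genes. Of 26 tested genes of the identity list 1, Stab1, was higher in db/db and salt and 0 lower, with a median of 0.22, and none passed without the 8, with a median of -0.03. Flt4 had 794 CPM (702 to 894) in db/db and salt and 591 CPM (527 to 661) in db/+, and without the 8 it had 814 and 729 CPM with overlapping intervals. Maf had 645 CPM (562 to 736) in db/db and salt and 668 CPM (600 to 742) in db/+, and 661 and 844 CPM without the 8.

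Several genes of antigen presentation were lower in db/db and salt lymphatic barcodes. Of 14 tested, 11 were at least 2-fold lower and 0 higher, beside 2.73% of all genes lower. The median was -1.71 against 0.01 for all genes. Of these 14 genes, 2 reached the limit of 50 CPM only through the 8 barcodes, and both were called lower. Without the 8 barcodes, 5 of 12 were lower (B2m, H2-K1, H2-Q7, H2-T22 and Tap2), with a median of -0.84, where 1.54% of all genes were lower. A single db/+ barcode of 59580 UMIs weighed on this count: without it as well, 2 of 10 were lower (B2m and Tap2), with a median of -0.52. H2-Q7 was not among the 10, because with 48.5 CPM left in db/+ it missed the 50 CPM limit on the mean. Its ratio without that barcode was still 0.062. In blood endothelial barcodes 13 of 17 were lower, against 0.978% of all genes, with a median of -1.22.

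B2m, the light chain of MHC class I molecules, had 0 to 20 UMIs per db/db and salt barcode (median 6.5) and 0 to 235 UMIs per db/+ barcode (median 15). Single barcodes of the libraries overlapped. Its sum was 501 CPM (429 to 582) in db/db and salt and 1745 CPM (1633 to 1862) in db/+. Without the 8 it was 465 CPM (395 to 545) in db/db and salt and 1200 CPM (1087 to 1320) in db/+, a ratio of 0.388 (0.321 to 0.468). One db/+ barcode held 127 of the 418 UMIs, and the ratio was 0.462 without it. The ratio in blood endothelial barcodes was 0.405.

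H2-K1, a classical class I heavy chain, had 369 CPM (307 to 441) in db/db and salt and 1048 CPM (943 to 1161) in db/+ without the 8, a ratio of 0.353. The same db/+ barcode held 181 of the 365 H2-K1 UMIs, and without it the ratio was 0.580, short of 2-fold. H2-D1, the other classical heavy chain, had 1183 CPM (1069 to 1306) in db/db and salt and 2104 CPM (1954 to 2262) in db/+, a ratio of 0.562 (0.496 to 0.636) that misses the 2-fold limit, and 0.763 without that barcode. H2-Q7, a non-classical heavy chain, had 1 UMI in db/db and salt and 38 UMIs in db/+, a ratio of 0.0275 (0.000679 to 0.163). That barcode held 24 of the 38, and the ratio was 0.062 without it, still resting on 1 UMI in db/db and salt. H2-T22 had 13 UMIs in db/db and salt and 32 in db/+, a ratio of 0.425 (0.205 to 0.833), or 0.470 without that barcode, where its log2 ratio of -0.92 missed the limit. The heavy chain genes are close paralogs, and how reads shared between them were counted can move single values. Tap2, of the transporter that loads peptides, had 10 UMIs in db/db and salt and 31 in db/+, a ratio of 0.338 (0.148 to 0.706). With all 53 barcodes the log2 ratios were -1.76 for H2-K1, -1.17 for H2-D1, -3.79 for H2-Q7, -1.66 for H2-T22 and -1.78 for Tap2. Cd74, the class II invariant chain, had 0 UMIs in db/db and salt (up to 11.1 CPM) and 6 UMIs in db/+, all in 1 barcode.

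Of the 5 genes lower without the 8 barcodes, the promoters of 4 were searched, all but that of Tap2, and 2 hold a match to GAAANNGAAA, the core of the element that interferon regulatory factors bind. They are the 250 bases before the RefSeq start (GRCm38.p6), written 5′ to 3′ along the gene's strand with the match in capitals, B2m at chr2:122147437-122147686 (+) and H2-T22 at chr17:36042743-36042992 (-).
B2m: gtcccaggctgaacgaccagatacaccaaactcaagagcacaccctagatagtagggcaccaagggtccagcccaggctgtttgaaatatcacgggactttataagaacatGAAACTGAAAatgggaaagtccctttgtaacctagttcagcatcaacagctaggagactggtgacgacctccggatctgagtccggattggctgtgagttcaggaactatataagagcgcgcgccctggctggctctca
H2-T22: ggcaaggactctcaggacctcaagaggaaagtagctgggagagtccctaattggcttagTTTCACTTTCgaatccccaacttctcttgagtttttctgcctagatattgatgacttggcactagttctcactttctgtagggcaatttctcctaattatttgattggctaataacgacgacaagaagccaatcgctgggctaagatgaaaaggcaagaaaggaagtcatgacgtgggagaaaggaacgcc
The match begins 139 bases before the start in B2m and 191 bases before it in H2-T22, where it lies on the other strand. Searched on both strands in windows of 300 bases, 250 before to 50 after each start, the motif is in 1131 of 32851 RefSeq promoters, or 3.44%. The table holds promoters of H2-K1 and H2-Q7, whose windows do not contain these letters. A match is a description of the letters and not a shown binding site. Only this exact pattern was searched, so a missing match does not show that a promoter lacks such an element.

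The interferon response list depended on the 8 barcodes. With all barcodes 10 of 15 genes were at least 2-fold lower in db/db and salt and 0 higher, beside 2.73% of all genes lower. The median was -1.24. Of these 15 genes, 6 reached the limit of 50 CPM only through the 8 barcodes and 5 of the 6 were called lower, so that count is a description of the filter as much as of the genes. Without the 8, 1 of the 9 that reached 50 CPM was lower, Ifi27l2a, beside 1.54% of all genes, and the median was -0.11. Blood endothelial barcodes had 13 of 24 lower, beside 0.978% of all genes, with a median of -1.03. Ifi27l2a, a small interferon-induced protein, had 315 CPM (258 to 382) in db/db and salt and 996 CPM (894 to 1106) in db/+ without the 8, a ratio of 0.317 (0.252 to 0.395), and the ratio in blood endothelial barcodes was 0.542. Bst2, tetherin, which holds budding viruses at the cell surface, had 240 CPM (190 to 299) in db/db and salt and 471 CPM (401 to 549) in db/+, just short of 2-fold. The ubiquitin-like Isg15 had 63.1 CPM (39.0 to 96.4) in db/db and salt and 66.0 CPM (41.8 to 99.1) in db/+, a ratio of 0.955 (0.503 to 1.81). The ratio of Isg15 in blood endothelial barcodes was 0.33, below that interval. Rsad2, viperin, had 3 UMIs in db/db and salt and 168 UMIs in db/+, of which 140 were in 1 of the 8 barcodes, and 1 UMI in each library without them.

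**Figure D5:**
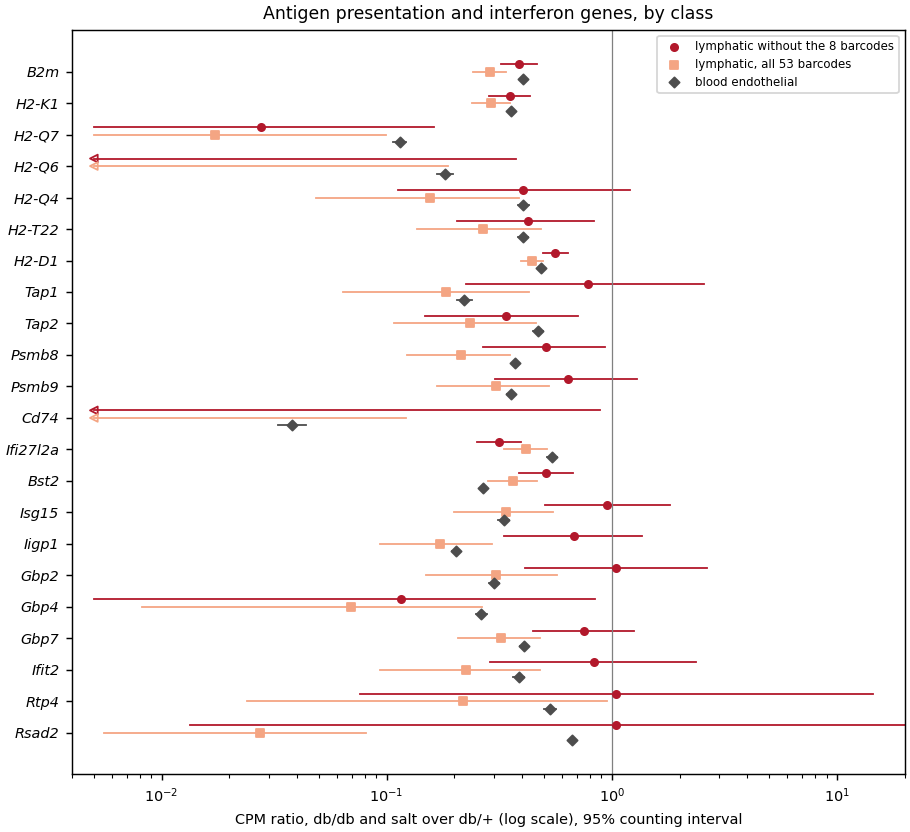
Ratio of CPM in db/db and salt over db/+ (log axis) with 95% counting intervals for genes named in the library comparison, in lymphatic barcodes without the 8 that carry blood endothelial transcripts, in all 53 lymphatic barcodes and in blood endothelial barcodes. An open arrowhead at the left edge marks a ratio below the axis. B2m and H2-K1 lie below 1 in each class, while Isg15 lies near 1 only without the 8 barcodes.

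Since the 8 barcodes were set apart by their sum of blood endothelial genes and 7 of them are db/+, values of that list with and without them are set by that choice. Of 18 tested genes of that list 9 were lower and 1, Plvap, higher in db/db and salt with all barcodes, with a median of -0.71. Of all genes 2.73% were lower and 1.28% higher. Without the 8, 0 of 12 were lower and 2 higher, Aqp1 and Gpihbp1, with a median of 0.43. Of all genes 1.54% were then lower and 1.52% higher. Among blood endothelial barcodes none of 23 passed in either direction. The genes named as lowest with all 53 barcodes included Ly6a, Ly6c1, Tcf15, Rflnb, Cxcl12 and Sparc. Their log2 ratios were -4.03 to -2.63 with all barcodes and -1.13 to -0.08 without the 8. Gpihbp1, which anchors lipoprotein lipase on capillaries, had 961 CPM (859 to 1072) in db/db and salt and 359 CPM (299 to 427) in db/+ without the 8. One db/db and salt barcode held 79 of its 320 UMIs there, and the ratio was 2.25 without it. The summed blood endothelial level of that barcode was 9402 CPM, just under the limit of 10000 CPM. Aqp1, a water channel, had 264 CPM (212 to 326) in db/db and salt and 94.7 CPM (65.2 to 133) in db/+.

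Genes higher in db/db and salt included some of those that marked barcodes without Lyve1 and Ccl21a. Apoe had 0 to 246 UMIs per db/db and salt barcode and 0 to 138 per db/+ barcode, with UMIs in 10 of 23 and 5 of 22 without the 8. Its sum was 1943 CPM (1796 to 2099) in db/db and salt and 617 CPM (537 to 705) in db/+, a ratio of 3.15 (2.69 to 3.69), or 2.19 without the db/db and salt barcode with most. Within barcodes with Lyve1 or Ccl21a the log2 ratio of Apoe was -0.19. The ratio in blood endothelial barcodes was 1.52. Ackr4 had 104 UMIs in 5 db/db and salt barcodes and 11 UMIs in 3 db/+ barcodes, a ratio of 9.89 (5.31 to 20.4). One db/db and salt barcode held 40 of the 104, and the ratio was 6.59 without it. The share of barcodes with neither Lyve1 nor Ccl21a differed between the libraries, as given above, and its part in these ratios was not tested.

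Stab1, a scavenger receptor seen in nearly all barcodes, had 739 CPM (649 to 837) in db/db and salt and 385 CPM (322 to 456) in db/+ without the 8, with UMIs in 22 of 23 and 21 of 22 barcodes. The ratio was 1.92 (1.55 to 2.39), just short of 2-fold, and the log2 ratio was 1.08 with all 53 barcodes. Igf1, insulin-like growth factor 1, had 41 UMIs in 12 barcodes in db/db and salt and 17 UMIs in 10 barcodes in db/+, a ratio of 2.52 (1.4 to 4.74), or 1.86 without the db/db and salt barcode with most. Ggct, an enzyme of glutathione breakdown, had 56 UMIs in db/db and salt and 18 in db/+, and 1 barcode held 30 of the 56, without which the ratio was 1.61. The other genes named as highest without the 8 were Gap43, Bola3 and the glutathione transferase Mgst1, at log2 ratios of 1.31 to 1.37. With all 53 barcodes the named genes also included Met, the receptor of hepatocyte growth factor, and Cpe, a carboxypeptidase, at 1.57 and 1.49, which had 1.15 and 1.18 without the 8.

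Among genes lower in db/db and salt, Klf2, the transcription factor that flow induces in endothelium, was spread over most barcodes. It had 625 CPM (543 to 716) in db/db and salt and 1335 CPM (1216 to 1462) in db/+ without the 8, a ratio of 0.468 (0.395 to 0.552), with UMIs in 21 of 23 and 18 of 22 barcodes. The log2 ratio was -1.08, and -1.10 with all 53 barcodes. The ratio in blood endothelial barcodes was 0.919, outside that interval. The list of early response genes, which cell handling is known to induce, had 1 of 15 lower without the 8, beside 1.54% of all genes. This was the heat shock gene Hspa1a, with 30 of its 41 db/+ UMIs in 1 barcode. The median of the list was -0.44 in lymphatic barcodes without the 8, against 0.10 in blood endothelial barcodes. The part of this list in the Klf2 value was not tested. Slc41a1 had 93.1 CPM (63.3 to 132) in db/db and salt and 743 CPM (656 to 840) in db/+ without the 8, and Cldn11 had 54.1 CPM (32.0 to 85.4) in db/db and salt and 204 CPM (159 to 257) in db/+. In db/+ nearly all UMIs of both lay in the 5 barcodes with 4 or more Cldn11 UMIs described above. Igfbp3 had 36.0 CPM (18.6 to 62.9) in db/db and salt and 201 CPM (157 to 254) in db/+, in 4 barcodes of each library with 40 of the 70 db/+ UMIs in 1, and ran the other way in blood endothelial barcodes, at 237 CPM in db/db and salt and 122 CPM in db/+. The other genes named as lowest without the 8 were Net1, Errfi1, Odc1 and Mafg, at log2 ratios of -1.82 to -1.50. Without the db/+ barcode with most UMIs of each gene they were at -1.58 to -1.17. The db/+ barcode of 59580 UMIs held 56 of 134 Odc1 and 19 of 53 Net1 UMIs. Odc1 makes polyamines and Errfi1 restrains the epidermal growth factor receptor. In blood endothelial barcodes these 4 had log2 ratios of -0.14 to 0.43.

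The leptin receptor gene Lepr had 4 UMIs in db/db and salt lymphatic barcodes (11.7 CPM, 3.19 to 30.0) and 21 UMIs in db/+ (40.3 CPM, 25 to 61.6). Without the 8 it had 4 UMIs in db/db and salt and 10 in db/+, a ratio of 0.419 (0.0958 to 1.45), which is not distinguishable from 1 at this depth. In blood endothelial barcodes it had 0.928 CPM in db/db and salt and 1.37 CPM in db/+. The db mutation alters splicing of Lepr, and counts of gene 3' ends do not read it, so these values check nothing about the genotype.

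Dbp, an output gene of the circadian clock, had 11 UMIs in db/db and salt and 32 UMIs in db/+ without the 8 (ratio 0.360, 0.164 to 0.732, or 0.561 without the db/+ barcode with most), and was also lower in blood endothelial barcodes, at 8.31 CPM in db/db and salt and 77.6 CPM in db/+. Cyp26b1, which breaks down retinoic acid, had 5 UMIs in db/db and salt lymphatic barcodes and 0 in db/+ without the 8 (up to 10.6 CPM). In blood endothelial barcodes Cyp26b1 had 334 CPM in db/db and salt and 34.9 CPM in db/+, so the gene was far lower in the lymphatic than in the blood endothelial barcodes of db/db and salt.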

How the data were processed

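Heart cell suspensions of 1 db/db and salt and 1 db/+ library were sequenced with a 10x 3' kit v3.1. The authors deposited filtered matrices of whole-number UMI counts per gene and barcode, made with Cell Ranger 6.0.2 per the file headers. The submitters' processing notes also name Seurat and the builds GRCm38 and mm10. The deposited counts were used unchanged. Ccl21a occurs under 2 gene IDs, which were summed. Groups follow the genotype labels, and a column of one library is 1 cell barcode.

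Counts were summed per library and class in Python 3.11.15 (numpy 2.4.6, pandas 2.3.3) and scaled to CPM. Intervals are exact Poisson for sums, Clopper-Pearson for shares and exact conditional binomial for ratios (scipy 1.17.1), at 95%. With 1 library per group no test was run, and "higher" or "lower" counts mean at least 2-fold on log2 of CPM + 10. The procedure was tested on simulated Poisson sums, which have no spread between barcodes, so the intervals were not checked against such spread. Doublets were scored with Scrublet (scanpy 1.11.5) and not removed. TMM factors came from edgeR 4.0.16. To compare shares of barcodes with a UMI, barcodes were thinned to 1500 UMIs. Gene coordinates matched 30934 of 31053 gene IDs.

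The members, lists and tests were chosen with earlier results of these data known. Named genes are the 15 highest and 10 lowest identity ratios, the 8 highest and 8 lowest library ratios (at least 100 CPM and UMIs in at least 30% of barcodes of the higher class) and up to 6 genes per list. Added after values were seen were the 10000 CPM limit on blood endothelial transcripts, the limit of 4 Cldn11 UMIs, the split by Lyve1 and Ccl21a, leaving out single barcodes, and single genes, among them H2-K1, H2-D1, H2-T22, Bst2, Pdpn, Ackr2, Cd9 and Timp3. Alternatives tried were the marker number, the filters, pseudocounts of 1 and 50 CPM, the low-count filter, TMM, the mean over barcodes, and each library alone.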

Additional observations from a re-analysis of the deposited data

Results flagged for a closer look

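Barcodes that the filters on genes and mitochondrial reads left out also held lymphatic transcripts. UMIs of at least 3 of the 5 rule genes were found in 2 of 607 barcodes left out in db/db and salt (0.329%, 0.0399 to 1.19) and in 2 of 728 left out in db/+ (0.275%, 0.0333 to 0.989). They enter no comparison above.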

How the results depend on the processing

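No paired analysis was possible because each group is 1 library. The main values were 425 genes higher and 432 lower in lymphatic barcodes, identity medians of 3.39 and -2.25, 46 genes higher and 98 lower in db/db and salt, and medians of -1.71 (antigen presentation) and -1.24 (interferon). Without the 8 barcodes with blood endothelial transcripts, the blood identity median was -3.20, 55 genes were lower in db/db and salt, and the medians were -0.84 and -0.11, or -0.52 and -0.18 when the db/+ barcode with most H2-K1 was left out too, a choice made after seeing the data. A pseudocount of 1 CPM gave a lymphatic identity median of 4.43 and 72 genes higher in db/db and salt. A pseudocount of 50 CPM gave 169 higher and 148 lower in lymphatic barcodes, a median of 2.20, and 16 higher and 50 lower in db/db and salt. With no low-count filter, 218 genes were higher and 467 lower in db/db and salt. A filter at 100 CPM gave 105 higher and 144 lower in lymphatic barcodes, and 19 higher and 38 lower in db/db and salt, since fewer genes were tested. Requiring 4 rule genes gave 98 genes higher in db/db and salt, and the mean over barcodes gave 105. In the db/db and salt library alone, 649 genes were higher and 829 lower in lymphatic barcodes, with a blood identity median of -2.90. Log2 ratios that changed sign without the 8 barcodes were those of Gbp2 (0.050) and Rsad2 (0.015). Within barcodes with Lyve1 or Ccl21a, they were those of Apoe (-0.19), Arrdc3 (-0.023), Ifit2 (0.15), Isg15 (0.27) and Rsad2 (0.14). Without barcodes with 4 or more UMIs of other cell types, it was that of Isg15 (0.10). The cause was not tested. TMM scaling shifted all identity ratios by 0.08. Depth limits genes under about 50 CPM between libraries, where 3 UMIs are 8.79 CPM in db/db and salt and 5.76 CPM in db/+.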

Other observations

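Lists not described above are set beside 4.87% of all genes higher and 4.95% lower in lymphatic than in blood endothelial barcodes. Of 13 retinoic acid and clock genes, Tef was higher and Cyp26b1 lower in lymphatic barcodes, with a median log2 ratio of 0.03. Of 12 leptin, insulin and IGF genes, Igfbp4 and Igfbp5 were higher and Igfbp7 lower, with a median of -0.42. Of 18 early response genes, Zfp36 was lower, with a median of -0.43. Between the libraries without the 8 barcodes, Mgp, an inhibitor of calcification, and Vcl, the adhesion protein vinculin, were at least 2-fold higher in db/db and salt, at log2 ratios of 1.26 and 1.28, and had 0.13 and 0.65 with all 53. Without the barcode with most Mgp UMIs, its log2 ratio was 0.61.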
